A study of Mus musculus with 34 samples.

Results

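Mouse epiblast stem cells of 2 wild-derived strains were set against those of 4 classical laboratory strains, with 15 of the 34 libraries of the series. The wild-derived side was chosen by strain name as every epiblast library of PWK/PhJ (3 lines) and CAST/EiJ (2 lines). The classical side was every epiblast library of C57BL/6J (5 lines), NOD/ShiLtJ (2 lines), NZO/HiLtJ (2 lines) and DBA/2J (1 line). No measured value entered that choice, and the 2 WSB/EiJ lines were left out. Each library is a separate cell line, with no edited gene or drug arm. All groups were kept on irradiated mouse embryonic fibroblasts in N2B27 medium with FGF at 12.5 ng/mL, activin A at 20 ng/mL and the tankyrase inhibitor NVP-TNKS6561 (so spelled in the labels) at 175 nM. C57BL/6J and DBA/2J lines carry plain numbers, CAST/EiJ lines WM numbers, and PWK/PhJ, NOD/ShiLtJ and NZO/HiLtJ lines AC numbers. Any difference in the origin of these line series cannot be told apart from strain, except between PWK/PhJ, NOD/ShiLtJ and NZO/HiLtJ, which share AC names.

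Epiblast stem cells hold the primed state of pluripotency, resemble the epiblast after implantation and depend on FGF and activin signals. PWK/PhJ descends from Mus musculus musculus and CAST/EiJ from Mus musculus castaneus, whereas the classical strains carry genomes mostly of Mus musculus domesticus origin. The wild-derived genomes therefore differ from the C57BL/6J reference, to which these reads were aligned, at many more positions than those of classical strains do. Processed pseudogenes are copies of messenger RNA pasted back into the genome, and reads from a gene and from such a copy can be hard to assign.

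Libraries held 25.6 to 33.8 M counts (M, mega), and values below are CPM, counts per mega counts after scaling for library composition. Epiblast markers were present throughout. Pou5f1, the central pluripotency factor, was at 604 to 721 CPM in PWK and at 382 and 429 CPM in CAST. The classical lines had 473 to 680 CPM of it. The naive marker Zfp42 was at or under 0.1 CPM in every line. Other naive markers were detected over the 15 lines: Klf4 at 1.62 to 13 CPM, Tfcp2l1 at 2.57 to 9.78 CPM and Esrrb at 0.742 to 2.59 CPM. Summed CPM of the 15 fibroblast feeder genes on a log2 scale was 11.4 to 11.8 in PWK, 10.9 to 11.4 in CAST and 6.63 to 12 in the classical lines, so the classical range enclosed both. The median log2 fold of these genes against the classical strains was nevertheless 0.99 in PWK and 0.36 in CAST. Of these genes 0 changed in both strains, and with their mean level in the fit 1880 of the 2154 shared changes given next were still called. Among the shared changes of the lists, Hk1, Tdgf1, Igf2r, Rps2, Rpl17 and Rps27l lost their call in that fit. Fewer cells of a type and less RNA per cell cannot be told apart in such bulk libraries.

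A change was called shared when PWK and CAST each differed from the mean of the 4 classical strains in the same direction, with an adjusted p under 0.05 in each comparison (edgeR's quasi-likelihood test, Benjamini-Hochberg adjustment). Of 17749 genes tested, 983 rose in both strains (5.54%) and 1171 fell in both (6.6%), 2154 in all (12.1%). Both comparisons use the same classical lines, so the overlap itself carries no test. PWK differed from the classical strains in 4838 genes (27.3%) and CAST in 5916 (33.3%), and 321 genes (1.81%) were called in both with opposite signs. At least a 2-fold difference in each strain was seen for 558 of the genes that rose and 281 of those that fell. In 531 of the first and 684 of the second, the 5 wild-derived lines did not overlap the 10 classical lines. Such separation was found for 596 (3.36%, above) and 784 (4.42%, below) of all genes tested. PWK and CAST also differed from each other in 144 of the genes that rose and 200 of those that fell. These p-values measure the spread between lines of a strain. On the 6 strain means, 2 against 4, limma called 361 genes (229 higher, 132 lower; 3352 at an unadjusted p under 0.05), and 339 of them were among the shared changes. Leaving out CAST line WM080 left 1135 shared changes and leaving out WM078 left 1398.

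Most shared changes were protein-coding genes, 58.9% of those that rose and 82.6% of those that fell, but the classes had different shares in each direction. Tested genes reached 10 counts in 3 or more libraries, so a gene near 0 in the classical lines could enter through the wild-derived lines alone. The shares below depend on that filter. Of the 190 pseudogenes tested, 50 rose in both strains (26.3%) and 6 fell (3.16%). Another 3092 genes tested had a sequencing clone name that did not match GENCODE M21, so their type is not given and they may include pseudogenes. Of these, 325 rose (10.5%) and 159 fell (5.14%). Protein-coding genes went the other way, with 579 of 13793 higher (4.2%) and 967 lower (7.01%). The classes differed in size of change as well: the median log2 fold of the mean of both strains was 4.54 for pseudogenes that rose, 3.74 for clone-named genes that rose and 0.83 for protein-coding genes that rose, and it was -0.497 for protein-coding genes that fell. Of the 166 genes higher by a log2 fold of 4 or more in each strain, 126 were clone-named (75.9%), 26 were pseudogenes (15.7%) and 11 were protein-coding (6.63%). Pseudogenes took 0.268 to 0.306% of the counts of tested genes in the 5 wild-derived libraries and 0.047 to 0.138% in the 10 classical ones. Clone-named genes took 2.22 to 2.33% against 1.29 to 1.65%. Neither range overlapped between the groups.

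**Figure D1:**
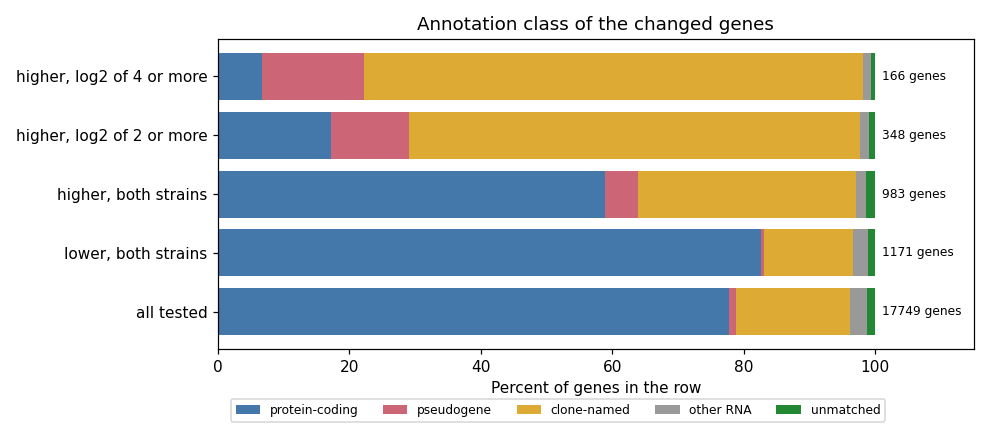
Share of each annotation class (horizontal axis, percent of genes in the row) among all genes tested, genes lower or higher in both PWK and CAST, and genes higher by a log2 fold of at least 2 or 4 in each. Clone-named genes and pseudogenes make up 75.9% and 15.7% of the 166 genes in the top row.

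The copies could be set beside the genes they derive from. Rps2 encodes a protein of the small ribosomal subunit (chromosome 17, 24718116 to 24721929, GRCm38), and Rps2-ps13 is a processed pseudogene on chromosome X (52898588 to 52899469). Rps26, another small-subunit gene (chromosome 10, 128624534 to 128626747), has a copy on chromosome 8, Rps26-ps1. Amd1 encodes adenosylmethionine decarboxylase of polyamine synthesis (chromosome 10, 40287458 to 40302186), and Amd2 is an intronless copy annotated as protein-coding (chromosome 10, 35708675 to 35711892). The copies matched their parents' reference coding sequence at 99.2% (Rps2), 99.4% (Rps26) and 99.9% (Amd1) of aligned bases, with 7, 2 and 1 differing bases. For Rps2, 97.4% of the coding sequence was aligned, and there were 13 gap bases besides. Coding windows of 90 bases from GENCODE M21 transcripts on GRCm38 are shown 5′ to 3′ because a read across such a window meets only the marked differences; capitals mark the bases at which gene and copy differ.
Rps2: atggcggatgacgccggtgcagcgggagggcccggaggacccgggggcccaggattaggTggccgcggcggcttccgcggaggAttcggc
Rps2-ps13: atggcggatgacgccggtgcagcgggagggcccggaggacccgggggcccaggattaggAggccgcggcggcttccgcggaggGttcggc
Rps26: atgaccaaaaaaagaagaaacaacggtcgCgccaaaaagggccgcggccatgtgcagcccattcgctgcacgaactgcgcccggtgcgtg
Rps26-ps1: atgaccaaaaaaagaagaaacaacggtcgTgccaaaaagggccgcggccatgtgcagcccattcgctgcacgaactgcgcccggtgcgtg
Amd1: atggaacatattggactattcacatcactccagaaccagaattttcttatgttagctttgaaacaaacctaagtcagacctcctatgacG
Amd2: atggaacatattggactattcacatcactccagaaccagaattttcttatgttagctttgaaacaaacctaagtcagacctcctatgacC

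In these pairs the copy was higher in all wild-derived lines than in any classical line, and the parent was lower in both strains by the test, in some cases with overlap between lines. Rps2-ps13 stood at 227, 253 and 237 CPM in the PWK lines and at 434 and 443 CPM in the CAST lines. The 10 classical lines had 0.0596 to 0.312 CPM (median 0.187), so no line overlapped. Rps2 itself was at 1160 ± 86.7 CPM (SD, n = 3) in PWK, 799 ± 8.17 CPM (SD, n = 2) in CAST and 1570 ± 247 CPM (SD, n = 10) in the classical lines, with PWK and classical lines overlapping. Gene and copy together came to 1300 to 1500 CPM in PWK, 1230 and 1250 CPM in CAST and 1190 to 1940 CPM in the classical lines, and here both wild-derived strains lay inside the classical range. With counts of copies added to their parents and the whole table refitted, the log2 fold of Rps2 went from -0.33 to -0.06 in PWK (adjusted p = 0.671) and from -0.87 to -0.24 in CAST (adjusted p = 0.15). Counted alone, Rps2 also lost its shared call without NZO line AC671 (adjusted p = 0.0571), PWK line AC695 (0.147) or AC698 (0.103), without all C57BL/6J lines (0.138) and with the feeder level in the fit (0.0563); over all alternatives, summing included, adjusted p ran from 0.00346 to 0.671.

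Rps26 differed between the strains in how its counts were divided. Rps26-ps1 had 266, 330 and 279 CPM in PWK, 141 and 138 CPM in CAST and 0.452 to 1.79 CPM in the classical lines (median 1.29). It took 69.7% of the counts of the pair in PWK, 24.4% in CAST and 0.191% in the classical lines. Rps26 was at 121, 137 and 121 CPM in PWK, 435 and 429 CPM in CAST and 394 to 767 CPM in the classical lines (median 671). The PWK lines were far below every other line, and the CAST lines were inside the classical range. Its call was lost without either CAST line or either NZO line. Summed with its copies, Rps26 was no longer a shared change (log2 fold -0.64 with adjusted p = 0.0148 in PWK, -0.19 with adjusted p = 0.493 in CAST). Rps19 and Rps19-ps6, 98.9% identical, went the same way: the copy had 203 ± 4.59 CPM (SD, n = 3) in PWK, 229 CPM in CAST and a classical median of 1.03 CPM, and the parent's log2 fold of -0.87 in PWK and -0.93 in CAST became -0.15 and -0.11 after summing, with adjusted p of 0.132 and 0.312.

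Some parents stayed lower after summing. Amd2 was at 30.2, 29.1 and 33.4 CPM in PWK, 24.9 and 31.6 CPM in CAST and 0.219 to 3.6 CPM in the classical lines (median 0.774), while Amd1 was at 85.7 to 92.8 CPM, 67.9 and 84.6 CPM, and 131 to 265 CPM. Neither gene overlapped between the groups. Summed, Amd1 remained lower by a log2 fold of -0.73 ± 0.12 (SE, adjusted p = 0.000903) in PWK and -0.93 ± 0.15 (SE, adjusted p = 0.000553) in CAST. Got2, the mitochondrial aspartate aminotransferase, had a copy that took 5.15% of the pair's counts in PWK and 6.43% in CAST, and its summed log2 folds were -0.82 and -1.24. Pcna, the sliding clamp of DNA replication, kept summed log2 folds of -0.33 and -0.54 with adjusted p of 0.0259 and 0.00393. Its copy Pcna-ps2 was uneven among classical lines (0.84 to 42.3 CPM, median 16.1).

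**Figure D2:**
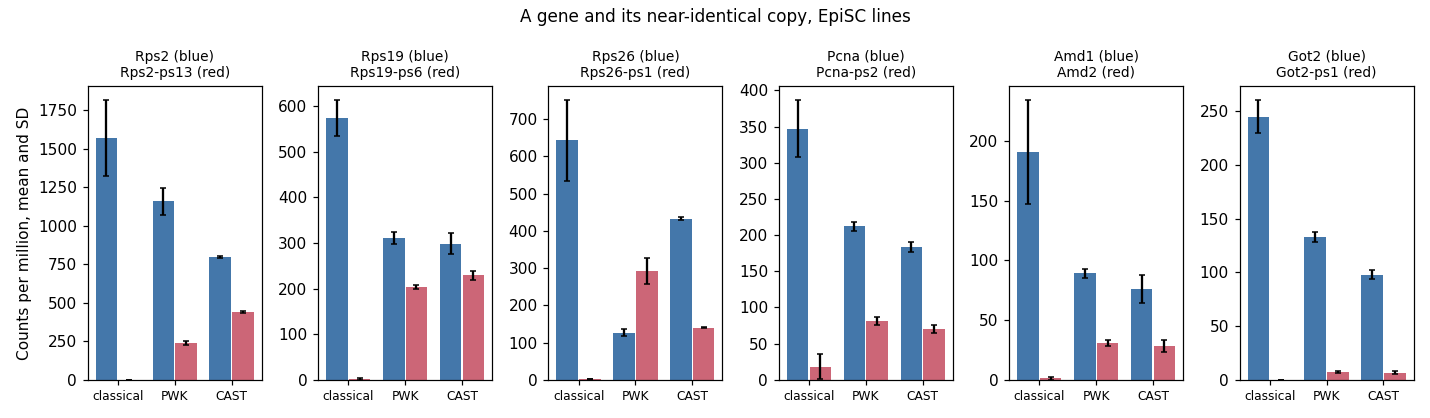
Mean CPM with SD (vertical axis, from 0) of 6 genes (blue) and a near-identical copy (red) in the 10 classical, 3 PWK and 2 CAST lines. The red bars are near 0 in the classical lines except for Pcna-ps2, and the blue bars are lower in PWK and CAST.

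Across the table, 112 pairs of a gene and a copy named for it by the suffix -ps were tested. A copy could pass the filter through the wild-derived lines alone. In 35 pairs, with 34 parents, the copy rose in both strains. Of these 34 parents 16 fell in both strains and 0 rose, beside 6.6% and 5.54% of all genes tested. The parents' median log2 fold over pairs was -0.372 in PWK and -0.349 in CAST, beside 0.01 and -0.004 over all genes tested. Counted by pairs, the parent fell in 17 of the 35 (48.6%). Among the 73 pairs whose copy was not called shared, the parent fell in 14 (19.2%). Many parents were ribosomal protein genes, and of the 75 such genes tested 16 fell in both strains. After summing, 7 of the 34 parents were still shared changes, all lower, and their median log2 folds moved from -0.373 to -0.209 in PWK and from -0.344 to -0.142 in CAST. After that refit 945 genes rose and 1151 fell of 17636 tested. The reverse arrangement also occurred: Gpr137b-ps was lower in both strains (log2 folds -1.40 and -2.16) and Gpr137b, which encodes a lysosomal membrane protein, was higher (1.54 and 0.91). Whether the copies are transcribed in the wild-derived lines or receive reads of their parents was not tested.

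The genes of the mitochondrial genome gave a similar picture. Of 12 tested, 4 rose in both strains (mt-Nd3, mt-Atp6, mt-Co2 and mt-Co3) and mt-Co1 fell, beside 5.54% and 6.6% of all genes tested. Of these, mt-Co2 and mt-Co3 were near the floor, with at most 2.55 and 2.58 CPM in any line. mt-Nd3, a subunit of respiratory complex I (chromosome M, 9459 to 9806), was at 30.8, 34.7 and 25.3 CPM in PWK, 15.6 and 15 CPM in CAST and 0.0298 to 0.259 CPM in the classical lines (median 0.155). mt-Atp6, a subunit of ATP synthase, had 12.3 to 13.7 CPM, 13.6 and 19 CPM, and 0.226 to 0.774 CPM in the same order. mt-Co1, a catalytic subunit of cytochrome c oxidase, was at 3590 ± 89.6 CPM (SD, n = 3), 3380 CPM and 7750 CPM (SD 644.6, n = 10). Its log2 folds were -1.10 ± 0.08 (SE) in PWK and -1.19 ± 0.09 (SE) in CAST, and no line overlapped. The list's median log2 fold was 0.18 in PWK and 0.10 in CAST. mt-Co3 lost its shared call without CAST line WM080 (adjusted p = 0.322, from 0.00385 to 0.322 over all alternatives). In the same lines 3 clone-named genes of 1 clone were high: RP23-407K8.3 had 2950 to 3020 CPM in PWK, 2700 and 3150 CPM in CAST, 207 and 209 CPM in the NZO lines, and at most 1.48 CPM in the other classical lines. What these 3 genes are is not given in the annotation used here. Nuclear copies of mitochondrial DNA exist in mouse genomes, and these values are therefore uncertain as levels of mitochondrial RNA.

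Ranking was limited to named genes whose log2 CPM averaged 3 or more and whose lines did not overlap. There, the 12 largest shared increases included a kinase-like, a signalling and several metabolic genes. Rps6kl1, a relative of ribosomal S6 kinases (chromosome 12, 85135249 to 85151264), had 26.3, 31.6 and 30 CPM in PWK, 43.1 and 44.1 CPM in CAST and 1.32 to 2.97 CPM in the classical lines (median 1.78). All 5 wild-derived lines were thus well above every classical line, with log2 folds of 3.96 ± 0.20 (SE, adjusted p = 2.815e-08) and 4.54 ± 0.22 (SE, adjusted p = 1.846e-08). Irs4, an adaptor of insulin and IGF signalling on the X chromosome (141710998 to 141725263), was at 136, 107 and 92.1 CPM in PWK, 288 and 215 CPM in CAST and 2.92 to 37.2 CPM in the classical lines (median 6.77). The classical lines were spread widely there, and the log2 folds were 3.79 ± 0.57 (SE) and 4.96 ± 0.63 (SE).

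Gstz1, an enzyme of tyrosine breakdown (chromosome 12, 87147165 to 87164723), was tight in the wild-derived lines, with 72.2, 73.9 and 71.8 CPM in PWK and 69.8 and 64.5 CPM in CAST, and ranged from 7.6 to 26.4 CPM in the classical lines (median 15.5). Fzd4, a Wnt receptor of the Frizzled family (chromosome 7, 89404355 to 89413134), had 36.9, 32.7 and 32.5 CPM in PWK, 25 and 28.8 CPM in CAST and 6.22 to 13.8 CPM in the classical lines. Its log2 folds were 2.00 ± 0.18 (SE, adjusted p = 4.323e-06) and 1.66 ± 0.20 (SE, adjusted p = 6.276e-05). Acad10, of the acyl-CoA dehydrogenase family, had log2 folds of 1.69 and 1.51, and Rab38, a small GTPase of melanosome transport, 1.74 and 2.72. The ubiquitin ligase gene Rnf157 (1.60 and 1.58), the Cdc42 effector Cdc42ep5 (1.81 for the mean of both), Lrriq1 (2.58 and 2.38) and Cxx1c (1.70 and 1.40) completed the 12 with mt-Nd3 and Amd2. Cxx1c belongs to a family of close copies and is uncertain. It lost its call without CAST line WM080 or WM078, where its log2 fold of the mean stayed within 1.34 to 1.91 and its adjusted p within 0.00645 to 0.125 over all alternatives.

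The 12 largest shared decreases began with Slc35d3, a sugar transporter family member (chromosome 10, 19847916 to 19851459). It had 0.478, 1.1 and 1.12 CPM in PWK, 4.4 and 3.18 CPM in CAST and 18.2 to 51.6 CPM in the classical lines (median 31.8). PWK was lower than CAST as well (log2 difference -2.08, adjusted p = 0.0012). Slc6a15, a transporter of branched-chain amino acids and proline (chromosome 10, 103367783 to 103419377), had 6.62, 7.09 and 8.98 CPM in PWK, 2.81 and 3.58 CPM in CAST and 30.1 to 50.7 CPM in the classical lines (median 41.4). Here CAST was the lower strain (log2 difference, PWK minus CAST, 1.24, adjusted p = 0.000294).

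Nrbf2, a component of an autophagy lipid kinase complex (chromosome 10, 67266689 to 67285305), stood at 3.11 to 3.3 CPM in PWK, 2.64 and 3.48 CPM in CAST and 11.4 to 16.9 CPM in the classical lines. Its log2 folds were nearly equal, -2.09 ± 0.12 (SE, adjusted p = 9.046e-08) and -2.14 ± 0.15 (SE, adjusted p = 4.869e-07). Firre, a long noncoding RNA that takes part in the placement of the inactive X chromosome (chromosome X, 50555744 to 50635321), had 47.7, 47.2 and 62.6 CPM in PWK, 63.2 and 61.1 CPM in CAST and 160.5 to 258.1 CPM in the classical lines. The quinone reductase Nqo2 (-2.02 and -1.87), the decoy receptor Tnfrsf22 (-1.88 and -1.98) and Fam185a (-2.24 and -1.93) fell by similar log2 folds. Ugt8a, an enzyme of galactosylceramide synthesis, had -2.27 and -2.44, and the noncoding RNA Platr14, -1.63 and -1.73. Stag3, a meiotic cohesin subunit, had -2.14 and -3.52 and varied from 4 to 32.9 CPM among classical lines. Srp54c (-2.75 and -3.02) is 1 of several near-identical copies of a signal recognition particle gene and is uncertain. The integrin subunit Itga3 (-1.79 and -1.68) lost its call without CAST line WM080 or WM078 (adjusted p from 0.000134 to 0.162 over all alternatives).

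**Figure D3:**
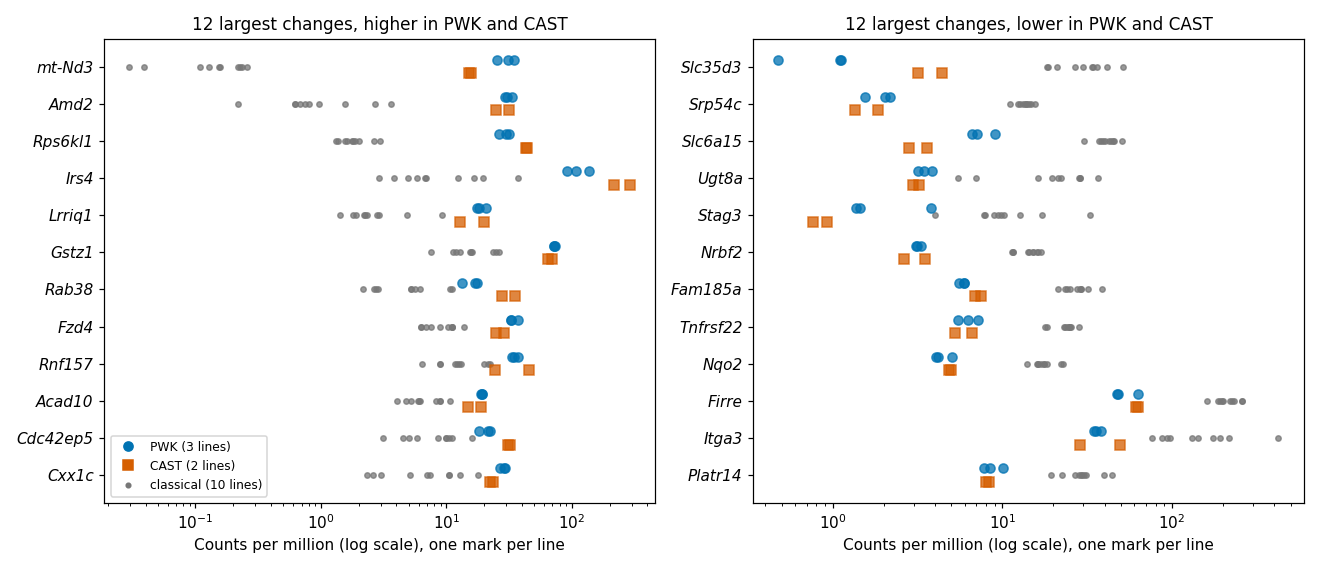
CPM on a log scale (horizontal axis) of the 12 largest shared increases (left) and decreases (right), with 1 mark per line: PWK blue circles, CAST orange squares, classical grey dots. In every row the 5 wild-derived lines lie apart from the 10 classical lines, as the selection required; PWK and CAST differed by the test in mt-Nd3, Slc35d3, Slc6a15 and Stag3.

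Counts of shared changes in the lists stand beside 5.54% higher and 6.6% lower among all genes tested. Of 12 primed epiblast genes 0 rose or fell in both, of 12 core pluripotency genes 2 fell (L1td1 and Lin28b) and of 8 naive genes tested 1 rose (Nr5a2). In CAST by itself 6 of the 12 core genes fell, and 3 of the 12 primed genes rose and 4 fell, beside 16.2% higher and 17.1% lower of all genes. In PWK 2 of the 12 core genes fell and 0 primed genes were called, beside 13.5% higher and 13.8% lower of all genes. L1td1, an RNA-binding protein of pluripotent cells, was at 593 ± 37.2 CPM (SD, n = 3) in PWK, 513 ± 5.64 CPM (SD, n = 2) in CAST and 906 ± 147 CPM (SD, n = 10) in the classical lines, with no overlap. Lin28b, which blocks let-7 maturation, had log2 folds of -0.45 and -0.71 and lost its call without CAST line WM080 or PWK line AC705 (adjusted p from 0.00129 to 0.0668 over all alternatives). Nr5a2, an orphan nuclear receptor, reached 2.97 ± 0.84 CPM (SD, n = 3) in PWK and 1.16 ± 0.33 CPM (SD, n = 2) in CAST against a classical range of 0.0365 to 0.649 CPM. The strains' own medians for the core list were -0.12 in PWK and -0.44 in CAST. For the naive list they were 0.52 in PWK and 0.91 in CAST. Of the 8 naive genes tested, 3 rose and 1 fell in CAST, and 1 rose and 0 fell in PWK.

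Genes of activin and Nodal signalling were mixed. Of 12, 1 rose (Lefty2, a secreted Nodal inhibitor) and 3 fell, among them the coreceptor Tdgf1 and the ligand Gdf3. Lefty2 was at 69.9 ± 12.4 CPM (SD, n = 3) in PWK, 34.3 ± 2.37 CPM (SD, n = 2) in CAST and 6.49 to 33.1 CPM in the classical lines, so the lowest CAST line met the highest classical one. Its call was lost without CAST line WM080 or WM078 or the DBA line 55. The same held in edgeR with no filter beyond 1 count (adjusted p = 0.0858) and against the mean of the 10 classical lines (0.0576). Tdgf1 lost its call without any of 10 single lines and is at the threshold (adjusted p up to 0.42). Gdf3 was at most 1.17 CPM in any line and lost its call without CAST line WM080 (highest adjusted p 0.0554). The BMP target Msx1 rose with log2 folds of 2.42 ± 0.24 (SE) and 2.10 ± 0.27 (SE) and no overlap, while 10 further BMP targets tested did not change in both strains. Of 10 Wnt targets tested 0 changed in both, and of 12 FGF and ERK targets 2 fell, Etv4 (-0.74 and -0.30) and Etv5 (-0.21 and -0.92). Etv4 lost its call without CAST line WM080 or WM078 or the DBA line 55, and Etv5 without any of 11 single lines.

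Of 17 glycolytic genes 3 fell in both strains (Pgam1, Eno1 and Pkm) and 1 rose (Hk1), with list medians of -0.34 in PWK and -0.22 in CAST. In PWK by itself 9 of the 17 fell and 1 rose, against 13.8% and 13.5% of all genes. In CAST 4 fell and 2 rose, against 17.1% and 16.2%. Pgam1, phosphoglycerate mutase, had 208 ± 4.88 CPM (SD, n = 3) in PWK, 178 ± 3.92 CPM (SD, n = 2) in CAST and 240.5 to 309 CPM in the classical lines. Eno1, enolase, fell by 0.83 and 0.48 on the log2 scale and lost its call without CAST line WM080 (adjusted p = 0.0844, from 0.000309 to 0.0844 over all alternatives). Pkm lost its call without any of 13 single lines, and Hk1 without any PWK line or with the feeder level in the fit (adjusted p = 0.0578). Of 14 hypoxia response genes 2 fell, Car9 and Higd1a. Car9, a carbonic anhydrase induced by low oxygen, was at 0.751 ± 0.259 CPM (SD, n = 3), 0.468 ± 0.227 CPM (SD, n = 2) and 1.19 to 2.85 CPM. Its call was lost without PWK line AC695 or AC705, and that of Higd1a without CAST line WM080 or WM078 or NZO line AC671.

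The RefSeq promoter windows (250 bases upstream of the start, GRCm38.p6) of Pgam1 (chr19:41911621-41911870, plus strand) and Car9 (chr4:43506776-43507025, plus strand) each held 1 match to ACGTG on either strand, the core bound by hypoxia-inducible factors. With Pkm, they are the shared decreases of these lists that held it, and capitals mark the match (CACGT is ACGTG on the opposite strand).
Pgam1: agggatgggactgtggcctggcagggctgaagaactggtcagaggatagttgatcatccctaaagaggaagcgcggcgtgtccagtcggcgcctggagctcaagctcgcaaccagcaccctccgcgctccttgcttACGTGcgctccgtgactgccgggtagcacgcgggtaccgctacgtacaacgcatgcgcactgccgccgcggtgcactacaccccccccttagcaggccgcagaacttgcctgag
Car9: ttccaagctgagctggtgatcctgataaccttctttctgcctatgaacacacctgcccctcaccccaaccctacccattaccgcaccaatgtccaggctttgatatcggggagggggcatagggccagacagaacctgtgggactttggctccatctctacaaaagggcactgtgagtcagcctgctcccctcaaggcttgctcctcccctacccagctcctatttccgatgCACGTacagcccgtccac
Eno1 and Higd1a had no match in their windows. A gene can have several such windows. At least 1 window held the motif in 8 of 16 glycolytic genes (50%), 8 of 12 hypoxia response genes (66.7%) and 2683 of 10961 of all genes tested that had a window (24.5%). Taken singly, 16.6% of all windows held it, a share per window that is not comparable with those per gene. A match describes these letters and is not a bound site.

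Of 16 cell cycle genes 5 fell in both strains and 0 rose (all genes tested: 6.6% and 5.54%), with medians of -0.33 in PWK and -0.34 in CAST. Ccnb1, the mitotic cyclin, was at 204 ± 8.59 CPM (SD, n = 3) in PWK, 200 ± 10.6 CPM (SD, n = 2) in CAST and 315.6 to 467.7 CPM in the classical lines. Its log2 folds of -0.81 ± 0.08 (SE, adjusted p = 1.156e-05) and -0.84 ± 0.09 (SE, adjusted p = 3.823e-05) were nearly the same. Pcna was given above, and Ccna2, Aurka and Ccne1 fell by smaller amounts (log2 folds from -0.61 to -0.32). These 3 lost their call without CAST line WM080, with adjusted p of 0.119, 0.0649 and 0.0672. Of 75 ribosomal protein genes tested 16 fell and 3 rose in both strains (all genes tested: 6.6% and 5.54%), with medians of -0.20 and -0.14. Processed copies of these genes are many and their values are uncertain. The classical strains were split in Rpl21, Rpl26, Rpl35a and Rps18. Rpl29 was split within C57BL/6J, whose lines had 355, 602, 367, 601 and 129 CPM. It was at 98.1 to 108 CPM in the other classical lines and 340 to 543 CPM in the wild-derived lines. Rpl26 was called higher with 475 to 550 CPM in the wild-derived lines. Its NZO lines had 153 and 154 CPM and the other classical lines 529 to 664 CPM. Rps18 lost its call without C57BL/6J (edgeR, adjusted p = 0.534). Rpl17, Rps3, Rps27l and Rpl37 lost theirs without any of 6, 7, 7 and 8 single lines, in that order. Summed with their copies, Rps2, Rps19, Rps26 and Rpl21 were no longer shared changes, while Rpl7, Rpl15 and Rpl17 remained lower. Rpl7a, with log2 folds of -0.90 and -1.12, and Rpl13, with -0.71 and -0.89, did not overlap between the groups.

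Few other lists held shared changes. The respiratory chain list had 2 lower of 20 (Ndufs1 and Ndufa10), the NRF2 list 2 lower of 12 (Gclm and Txnrd1), and the imprinted list 1 higher (Igf2r) and 1 lower (Snrpn) of 24. Calls were lost for Ndufs1 without any PWK or CAST line, for Ndufa10 without PWK line AC695 or AC698, for Gclm without PWK line AC695 or AC705 and for Txnrd1 without CAST line WM080. Snrpn, an imprinted splicing gene, had log2 folds of -0.64 ± 0.08 (SE) and -0.69 ± 0.10 (SE) with no overlap, whereas Igf2r lost its call without 4 single lines (CAST WM080 and WM078, PWK AC695 and AC705). Tet2, an enzyme that oxidises methylated cytosine, was the 1 shared change of 9 DNA methylation genes (log2 folds 0.78 and 1.18) and lost its call without PWK line AC695 or AC698. Esrp1, a splicing regulator of epithelia, rose as 1 of 12 epithelial genes (0.46 and 1.00), with calls lost without any of 5 single lines. Twist1, listed under mesoderm and mesenchyme, fell (-0.94 and -1.68) with no overlap. Of 34 genes of the Zfp900 series 1 rose and 2 fell. Interferon response (17 genes), MHC class I (12), cholesterol synthesis (16), amino acid stress (12), p53 targets (14), primitive streak (12), definitive endoderm (12), neuroectoderm (11 tested), germline (6 tested), immediate early and heat shock (10) and Y-linked genes (4) had 0 shared changes.

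Each strain by itself did differ in some of these lists. Of 12 definitive endoderm genes 10 rose in CAST (16.2% of all genes), with a list median of 2.59. In PWK 0 rose and 1 fell (13.5% and 13.8% of all genes), with a median of -0.12. Sox17, a key endoderm factor, was at 27.6 and 26.1 CPM in CAST, at 4.81, 1.9 and 2.72 CPM in PWK and at 0.477 to 10.7 CPM in the classical lines (median 3.26). Both CAST lines were above all others, and the PWK lines lay within the classical range. The PWK minus CAST difference for Sox17 was -3.09 on the log2 scale (adjusted p = 0.0423). Cer1, a secreted Nodal and BMP inhibitor, followed the same order with 30.7 ± 15 CPM (SD, n = 3) in PWK, 709 ± 79.4 CPM (SD, n = 2) in CAST and 3.78 to 178 CPM in the classical lines. The epithelial list had 10 of 12 members higher in CAST and 1 in PWK.

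In PWK, 8 of 14 p53 targets rose and 0 fell (median 0.38; 13.5% and 13.8% of all genes). In CAST 1 rose and 3 fell (median -0.19), near the shares of all genes there (16.2% and 17.1%). Eda2r, a TNF receptor family member, was at 90.9 ± 12.6 CPM (SD, n = 3) in PWK, 40.7 ± 6.07 CPM (SD, n = 2) in CAST and 32.8 to 90.5 CPM in the classical lines. The PWK minus CAST difference was 1.16 on the log2 scale (adjusted p = 0.00122). Ldha, lactate dehydrogenase, fell in PWK (log2 fold -1.31 ± 0.14 SE) and had -0.21 ± 0.15 (SE) in CAST, and the strains differed (-1.10, adjusted p = 0.000702).

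**Figure D4:**
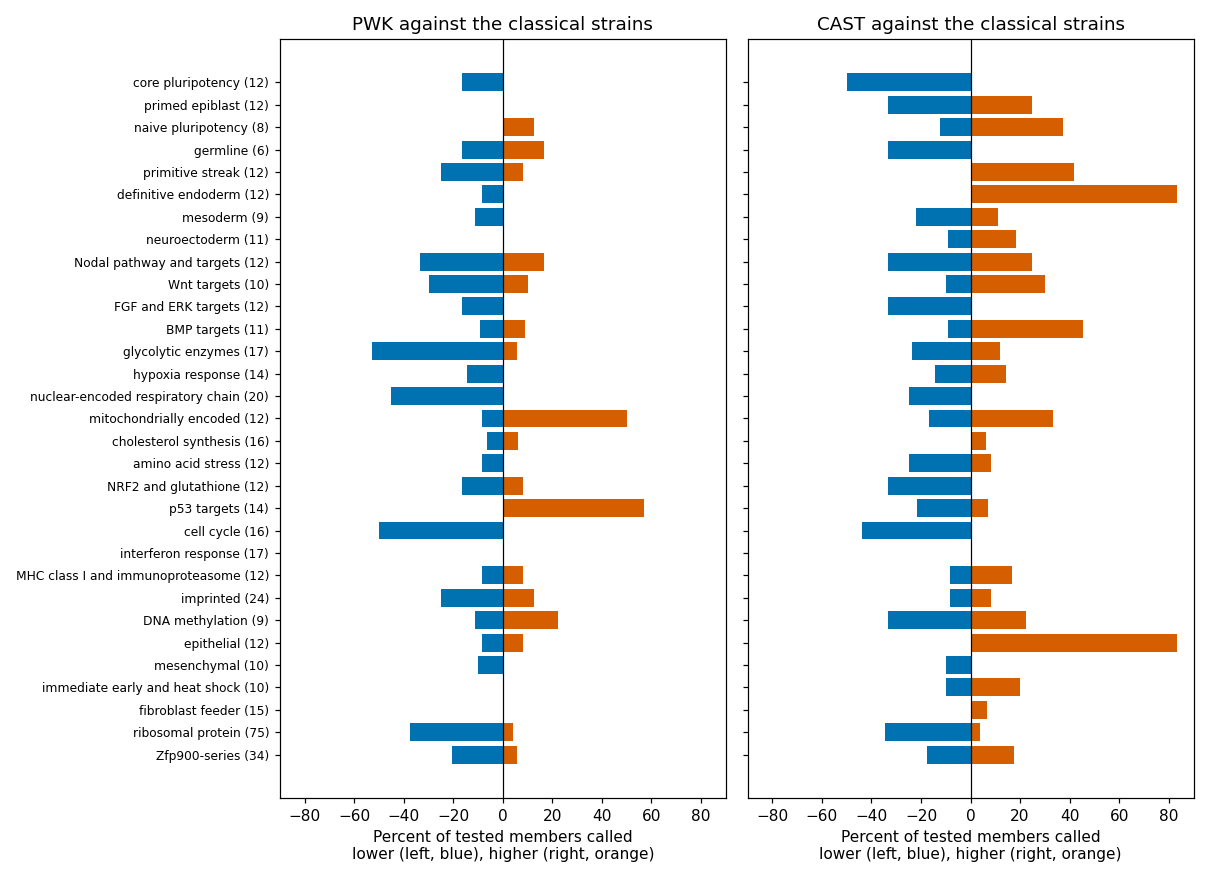
Percent of the tested members of each list (numbers in parentheses) called lower (left, blue) or higher (right, orange) in PWK and in CAST against the classical strains. Definitive endoderm and epithelial genes stand out on the CAST side with 10 of 12 higher, and p53 targets on the PWK side with 8 of 14 higher.

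PWK and CAST differed directly in 4088 genes (23%), 2105 higher in PWK and 1983 higher in CAST. The 4 largest in each direction under the level and class limits of the ranking are given here; some pseudogenes, which the ranking passed over, differed by more. Htr7, a serotonin receptor, was at 137, 137 and 121 CPM in PWK and 0.297 and 0.615 CPM in CAST, with 0.43 to 3.55 CPM in the classical lines. Car2, a cytosolic carbonic anhydrase, was at 116, 107 and 139 CPM in PWK and 0.727 and 0.41 CPM in CAST, with 155 to 334.9 CPM in the classical lines. Kirrel2 (log2 difference 5.61) and the tubulin gene Tuba1b (5.19) were also low in CAST, and Tuba1b belongs to a family of close copies. In the other direction Car4, a membrane carbonic anhydrase, was at 238 and 220 CPM in CAST, 1.02, 1.33 and 0.594 CPM in PWK and 0.216 to 108.6 CPM in the classical lines. Tas1r1, a taste receptor subunit, was at 65.3 and 81.8 CPM in CAST and at most 1.4 CPM in PWK. Platr10 and Dynlt1f, the latter from a family of close copies, differed by -6.07 and -5.45.

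Definitive endoderm libraries, mostly of the same lines but made with another kit, gave a second reading that is not independent. The 983 genes that rose in the epiblast lines included 325 clone-named genes and 50 pseudogenes. Such genes could pass the filter through the wild-derived lines alone. The shares below were not split by class, and whether uneven assignment of reads recurs in endoderm was not tested. There 4 PWK libraries and 1 CAST library were set beside 10 classical libraries, with no test. Of 940 genes that rose in the epiblast lines and were measurable, 247 (26.3%) also lay above all classical libraries. Among all 18903 genes of the endoderm libraries, 446 did so (2.36%). Of 1110 genes that fell in the epiblast lines, 113 (10.2%) lay below all classical libraries, beside 1.6% of all genes, and 1 lay above. The sign of the difference was the same for 818 of the 940 and 879 of the 1110. The share of same signs over all genes was not computed, so these 2 counts have no background. Amd2 (25.3 to 27.5 CPM against 0.337 to 4.73), Rps6kl1 (20.1 to 28.5 against 0.736 to 2.69), Gstz1 (73.3 to 125 against 21.8 to 53.4) and Lrriq1 kept apart among the 12 largest increases. Srp54c, Slc6a15, Nrbf2, Fam185a, Nqo2 and Firre did among the 12 largest decreases. Irs4 overlapped in endoderm, with 114 to 547 CPM against 40.5 to 582 CPM, as did Slc35d3 at 0 to 0.584 CPM against 0 to 2.02 CPM.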

How the data were processed

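RNA-seq counts of 15 epiblast libraries were analysed, with 15 definitive endoderm libraries as a description. The deposited values are raw counts of reads per gene (53655 rows, 0 naming no gene). The submitters' processing notes name STAR 2.4, HTSeq 0.6.1, DESeq2 and the mm10 build. How multiply aligned reads were handled, the strand option and the annotation release: not given in the sources used here. Therefore genes with close copies are uncertain and overlapping genes may share reads. Libraries were stranded polyA, read as pairs of 100 nt, per the labels' protocols. There were no molecular identifiers, so PCR duplicates count as reads.

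Genes reaching 10 counts in 3 or more libraries were fitted in R 4.3.3 with edgeR 4.0.16 (TMM, robust quasi-likelihood test, Benjamini-Hochberg, threshold 0.05), with 1 term per strain and 9 residual degrees of freedom. The contrasts were PWK, CAST and their mean against the mean of 4 classical strains, and PWK against CAST. Log2 CPM used a prior count of 2. In simulated data on 17749 genes, 56% of 2-fold and 78% of 4-fold shared changes were recovered, with 0 unchanged genes called. All strains had the same mean there apart from the planted changes. The simulation therefore cannot tell how often ordinary differences between strains give a shared call. Symbols were matched to GENCODE M21 (28534 matched). Named genes were list members or, with log2 CPM averaging 3 or more, no overlap between groups and predicted genes, pseudogenes and related sequences passed over, the 12 shared changes with the largest smaller fold in each direction. For PWK against CAST, 4 in each direction were taken. The values of 1 listed gene are not reported here. Sox17, Cer1, Eda2r and Ldha were picked from the lists, and the copy pairs and clone-named genes from the tables, after their values were seen. The comparison and lists were chosen with earlier results of these data known. Each library is a separate line, and lines of a strain differed with a chi-square per degree of freedom of 6.57 or more, so none was a duplicate. Alternatives were DESeq2 1.42.0, limma 3.58.1, other scaling, filters, weights, covariates and each line left out. Adding copies to parents was chosen after seeing the data.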

Additional observations from a re-analysis of the deposited data

Results flagged for a closer look

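Among 80 genes looked at (the 24 ranked and the shared changes of the lists), PWK and CAST differed from each other in 11, by the test of that difference itself (edgeR, adjusted p under 0.05). PWK minus CAST on the log2 scale was 0.99 for mt-Nd3, -2.08 for Slc35d3, 1.24 for Slc6a15, 1.38 for Stag3, -0.44 for Etv4, 0.71 for Etv5, 0.23 for Pgam1, -0.35 for Eno1, 0.34 for Ndufa10, 0.53 for Rps2 and -1.77 for Rps26. Both strains changed in the same direction against the classical lines in each of these genes, as the choice of shared changes required, but by unequal amounts.

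In 7 of the 80 genes (8.75%) 1 of the 5 C57BL/6J lines stood far from the other 4, where chance gives about 1 in 20. Line 1 was high for Lrriq1 (9.15 CPM, others 1.41 to 2.32) and Platr14 (39.8 CPM, others 28.1 to 31), and low for Pkm (3100 CPM, others 4000 to 4120) and Rps26 (394 CPM, others 642 to 715). Line 5-1 was low for Fam185a (21.2 CPM, others 27.5 to 29.1) and high for Txnrd1 (754 CPM, others 551 to 585). Line 2 was high for Ccna2 (274 CPM, others 242 to 249).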

How the results depend on the processing

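Shared changes numbered 2154, and under the planned settings 0 of them reversed. RLE scaling gave 2086 (48.5% higher, against 45.6%), DESeq2 2418, no filter beyond 1 count 1801, a filter of 50 counts 1799 and the Y-linked covariate 1711. Without C57BL/6J there were 2938, of which 1573 rose. Leaving out each line in turn gave 1135 to 2625 shared changes, 621 to 1340 higher and 514 to 1285 lower. The same gave 3031 to 5686 calls for PWK, 2509 to 6280 for CAST, 4053 to 6739 for the mean of both, 1808 to 4544 for PWK against CAST and 1392 to 1681 genes whose lines did not overlap. Every PWK or CAST line was among those with a marked effect, and the lowest count of shared changes came without CAST line WM080. For the mean of both, the 5 against 10 lines without strain terms gave 4016 calls and limma on strain means 361, where 2 strains against 4 leave few degrees of freedom. Of 88 gene results 0 reversed under the alternatives fitted with strain terms, and 47 kept their call under all of these, 39 of them shared changes. Of those 39, limma on strain means called 23 and did not call 16, and the fit without strain terms called 38. Among ranked genes, Rab38, Rnf157, Cdc42ep5, Ugt8a and Stag3 were so lost on strain means, with adjusted p of 0.0586, 0.061, 0.112, 0.127 and 0.104. Settings that kept every line also cost calls. With no filter beyond 1 count 15 of the 88 gene results lost theirs, among them Cxx1c, Itga3, Etv5, Higd1a, Igf2r and Esrp1. The Y-linked covariate cost 7, among them mt-Co3, Etv5, Igf2r and Esrp1. The feeder covariate cost 6 and the mean of the 10 classical lines 5. No paired analysis was possible because the labels number no replicates and strains share no line. With 2 CAST lines and 1 DBA/2J line the fit assumes that these strains vary like the others. Small changes in genes of few counts were not detectable with so few lines.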

Other observations

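A shared call can hide a split among the classical strains. The clone-named gene RP23-338O4.6, chosen after its values were seen, had log2 folds of -12.02 in PWK and -10.38 in CAST. It was at 548 to 714 CPM in the DBA, NOD and NZO lines, but 4 of the 5 C57BL/6J lines had 0.151 to 0.273 CPM and line 4 had 13.5 CPM. The wild-derived lines were at 0 to 0.137 CPM.

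Copies also differed between the wild-derived strains. Rpl21-ps15 had a log2 fold of 11.79 in PWK (adjusted p = 5.092e-10) and -2.31 in CAST (adjusted p = 0.308), and PWK minus CAST was 14.10 (adjusted p = 1.559e-07). Hmgb1-ps7 had 4.21 in PWK and -1.58 in CAST, both called, and PWK minus CAST was 5.79 (adjusted p = 3.725e-07).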
